A study of Mus musculus with 26 samples.

Results

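The neurotrophin genes examined here were Bdnf, Ntf3, Ntrk2, Ntrk3, Ngfr, Sort1 and Kidins220, measured in mouse entorhinal cortex and hippocampus. All probe sets (groups of oligonucleotides that read 1 transcript region) whose platform annotation gives exactly 1 of these symbols were taken. They belonged to 6 of the 18194 genes named on the array and were 28 of its 45101 probe sets: 2 for Bdnf, 8 for Ntrk2, 8 for Ntrk3, 3 for Ngfr, 3 for Sort1 and 4 for Kidins220. No probe set carried the symbol Ntf3, so neurotrophin-3 was not analysed here. Of the 28, 26 had a mean at or above the 30th percentile of all probe sets. The exceptions were Ntrk2 1444121_at and Ngfr 1421241_at, and every test below was run with no such filter.

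The study set lentiviral BDNF against a virus carrying green fluorescent protein in aged mice with a transgene for APP, the amyloid precursor protein. Each region had 13 arrays: 4 from APP transgenic mice given BDNF, 4 from APP transgenic mice given GFP, 2 from non-transgenic mice given GFP and 3 from non-transgenic mice with a sham lesion. Virus was delivered to the entorhinal cortex and both regions were taken 4 weeks later. The labels place every brain, sham ones included, after lentiviral infection, and they describe whole dissected tissue that was snap frozen. There was no non-transgenic BDNF group. The transgene's promoter and line, the promoter driving the viral insert and the ages in numbers are not stated in the labels. The replicates are called biological, with no tie between the cortex and hippocampus arrays of an animal.

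Brain-derived neurotrophic factor is made as a precursor and cleaved to a mature ligand that binds the receptor tyrosine kinase TrkB, the product of Ntrk2. Neurotrophin-3 binds mainly TrkC, the product of Ntrk3. Uncleaved precursors bind a complex of the p75 neurotrophin receptor (Ngfr) and sortilin (Sort1), and the scaffold Kidins220 is phosphorylated by Trk receptors and links them to sustained ERK signalling. In adult rodent forebrain, Bdnf transcript is best known from hippocampal and cortical excitatory neurons, and it is carried as protein along their axons. Ntrk2 and Ntrk3 each yield full-length receptors and truncated forms that lack the kinase, and astrocytes express mainly truncated TrkB.

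A start-site window of Bdnf and that of Ntrk2 are shown because the ligand and its receptor differed between the regions in opposite directions. They come from RefSeq on GRCm38.p6, each a window of 300 bases around a start. RefSeq windows were matched for Bdnf (7, one per start), Ntf3 (2), Ntrk2 (1), Ngfr (1) and Kidins220 (1). Capitals mark TGACG, the core of the cyclic AMP response element, and GGGCGG, the GC box, on either strand (CGTCA and CCGCCC are their reverse complements). The window at chr2:109692186-109692485 (plus strand) was the 1 Bdnf window of 7 that held TGACG, against 20.8% of 32851 RefSeq windows of this length. It is the Bdnf window shown. GC boxes were in other Bdnf windows, with 2 at chr2:109676782-109677081 and 1 at chr2:109692777-109693076. The single Ntrk2 window, at chr13:58806319-58806618 (plus strand), held 1 GC box, which 35.7% of windows hold. E boxes (CACGTG, in 7.15% of windows) and TATAAA (in 13.6%) were in neither window shown. A match of letters is a description only.
Bdnf: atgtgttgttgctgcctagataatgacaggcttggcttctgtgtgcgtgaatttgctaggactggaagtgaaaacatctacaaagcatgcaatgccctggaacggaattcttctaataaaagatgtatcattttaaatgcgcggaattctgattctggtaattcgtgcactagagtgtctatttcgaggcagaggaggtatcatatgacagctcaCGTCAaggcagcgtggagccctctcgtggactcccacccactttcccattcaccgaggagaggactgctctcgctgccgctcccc
Ntrk2: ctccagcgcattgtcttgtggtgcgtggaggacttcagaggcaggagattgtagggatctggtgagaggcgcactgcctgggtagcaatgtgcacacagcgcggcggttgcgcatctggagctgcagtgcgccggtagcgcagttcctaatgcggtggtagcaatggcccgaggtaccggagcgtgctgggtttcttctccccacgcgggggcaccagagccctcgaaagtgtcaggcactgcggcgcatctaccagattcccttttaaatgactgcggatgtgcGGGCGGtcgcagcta

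Values are the authors' robust multi-array average (RMA) values on the log2 scale, so a difference of 1 is a doubling of signal. Array medians lay between 5.51 and 5.58 and all values from 2.19 to 13.99. Levels were not set against each other between probe sets, whose probes differ in affinity. The dissections carried the markers of their labels. All 5 measured cortical layer genes were higher in entorhinal cortex, among them Cux2 (by 2.01 ± 0.09, SE). Of 6 dentate granule cell markers, 5 were lower there, among them Prox1 (-2.37 ± 0.15), as were 5 of 6 CA field markers. Xist, a transcript of the inactive X chromosome, was high on 18 arrays (10.38 to 11.01) and low on 8 (5.38 to 6.01), and all 8 low arrays were transgenic. On 3 arrays the mean of a tissue marker list stood apart. These were replicate 3 of the transgenic BDNF cortex and replicate 2 of the non-transgenic GFP cortex (low myelin) and replicate 1 of the sham hippocampus (high choroid plexus). The lymphocyte list separated the GFP from the sham arrays: its mean over 5 genes lay between 5.69 and 8.98 on all arrays from mice given GFP, against 5.08 to 5.55 on all sham arrays. Its highest gene differences between GFP and sham in non-transgenic mice were those of Jchain and Ighm, which encode antibody chains, and no gene of it passed there. Leaving out those 3 arrays leaves a single array of non-transgenic GFP cortex. Region differences over all groups were then 0.14 for Ntrk2 1420838_at and -0.12 for Sort1 1450955_s_at.

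The first question was where these genes were expressed, entorhinal cortex against hippocampus, as the mean of the 4 within-group differences. Bdnf was lower in entorhinal cortex by about 1 log2 unit, and 6 of 8 Ntrk2 probe sets were higher there. Ntrk3 was lower in entorhinal cortex by 4 of its 8 probe sets and higher by 1, Sort1 was lower by 2 of 3, and Kidins220 was higher by 2 of 4 and lower by 1. No Ngfr probe set passed. In all, 18 of 28 probe sets (64.3%) passed at an adjusted p under 0.05 (limma, Benjamini-Hochberg over all probe sets), 9 higher and 9 lower, against 39.4% of all probe sets (19.2% higher and 20.2% lower). These shares are not like for like. The 28 repeat 6 genes, and 26 of them lay at or above the 30th percentile. Of 14941 genes at that level, by 1 probe set a gene, 19.6% were higher and 29.9% lower. The median difference was -0.05 over the 28 and 0.01 over all probe sets. Arrays of the regions did not overlap for 4 of the 28, against 6.69% of all probe sets. In bulk tissue, fewer cells of a type and less RNA per cell cannot be told apart.

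**Figure D1:**
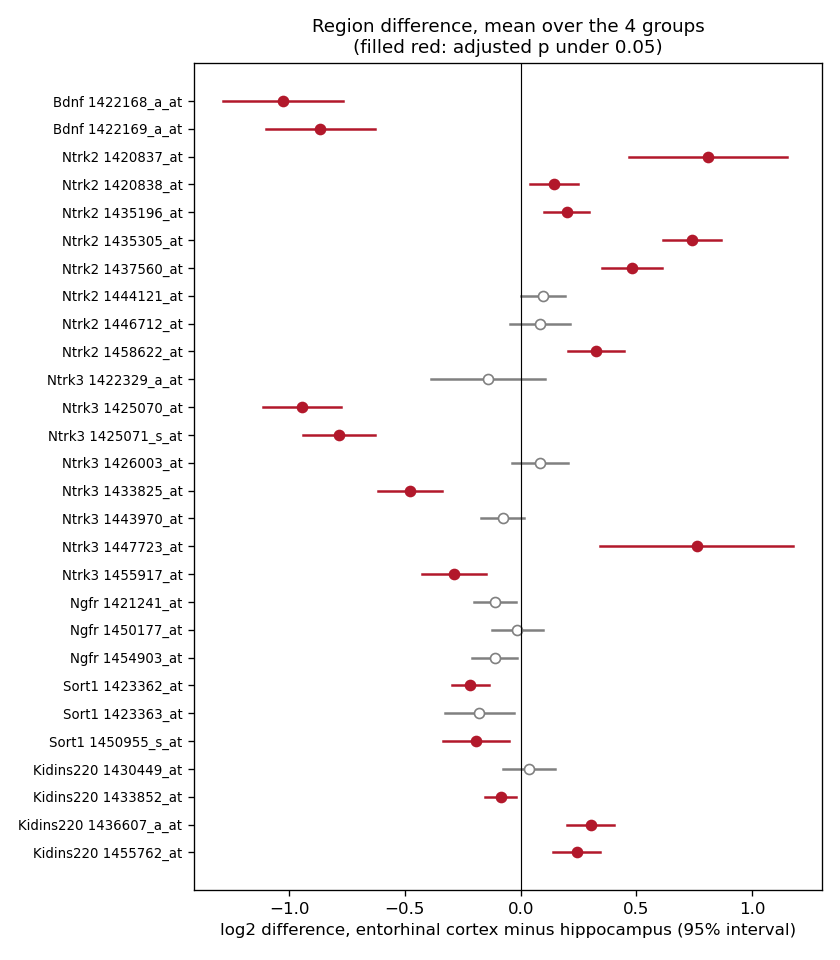
Log2 difference, entorhinal cortex minus hippocampus, with its 95% interval (x axis) for each of the 28 probe sets (y axis), as the mean over the 4 groups of 26 arrays. Filled red points are the 18 probe sets with an adjusted p under 0.05. Both Bdnf points lie left of 0, the 6 filled Ntrk2 points lie right of it, and Ntrk3 has filled points on both sides.

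Bdnf, the ligand, had 2 probe sets that behaved alike. Probe set 1422168_a_at read 7.14, 7.91 and 8.35 (lowest, median, highest of 13 arrays) in entorhinal cortex, against 8.26, 8.90 and 9.28 in hippocampus. Only the highest cortex array reached into the hippocampal range. The difference was -1.03 ± 0.13 (SE, adjusted p = 5.63e-07, limma), which makes the hippocampal signal 2.04-fold that of entorhinal cortex. Probe set 1422169_a_at read 7.42, 8.02 and 8.45 in entorhinal cortex, against 8.35, 8.81 and 9.16 in hippocampus (-0.87 ± 0.11, adjusted p = 1.64e-06). Within each of the 4 groups the cortex and hippocampus arrays did not overlap for either probe set. The groups are small (2 arrays a region in non-transgenic GFP mice), and the share of all probe sets without such overlap is not given here. The group differences ran from -1.29 to -0.81 for 1422168_a_at and from -1.05 to -0.70 for 1422169_a_at. After each region's mean was taken out, the pair correlated at r = 0.78 over 26 arrays, a description of arrays that share labels and normalization.

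The 8 group levels of Bdnf fell into a cortical and a hippocampal block, shown here for 1422169_a_at. In entorhinal cortex the arrays read 8.45, 8.18, 7.72 and 7.71 in transgenic mice given BDNF, against 8.12, 8.02, 7.91 and 7.56 in transgenic mice given GFP. Non-transgenic cortex read 7.42 and 8.21 with GFP, against 7.83, 8.26 and 8.05 with a sham lesion. The 4 cortical groups overlapped. On 1422168_a_at the pair of non-transgenic GFP cortices, at 7.14 and 8.35, were the lowest and the highest of all cortical arrays.

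In hippocampus the same probe set read 8.69, 8.60, 8.57 and 8.99 in transgenic mice given BDNF, against 9.16, 9.10, 8.35 and 8.80 in transgenic mice given GFP. Non-transgenic hippocampus read 9.12 and 8.60 with GFP, against 8.84, 8.81 and 8.82 with a sham lesion. Replicate 3 of the transgenic GFP hippocampi was the lowest of all 13 hippocampal arrays on both Bdnf probe sets. By group mean ± SD, the order from high to low was non-transgenic GFP (8.86 ± 0.37, n = 2), transgenic GFP (8.85 ± 0.37, n = 4), sham (8.82 ± 0.01, n = 3) and transgenic BDNF hippocampus (8.71 ± 0.19, n = 4). Cortical means followed from 8.05 ± 0.21 (sham, n = 3) through 8.01 ± 0.36 (transgenic BDNF, n = 4) and 7.90 ± 0.25 (transgenic GFP, n = 4) to 7.82 ± 0.56 (non-transgenic GFP, n = 2). Neighbours within a region differed by less than the larger of their SDs, and only the step between the regions exceeded it.

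**Figure D2:**
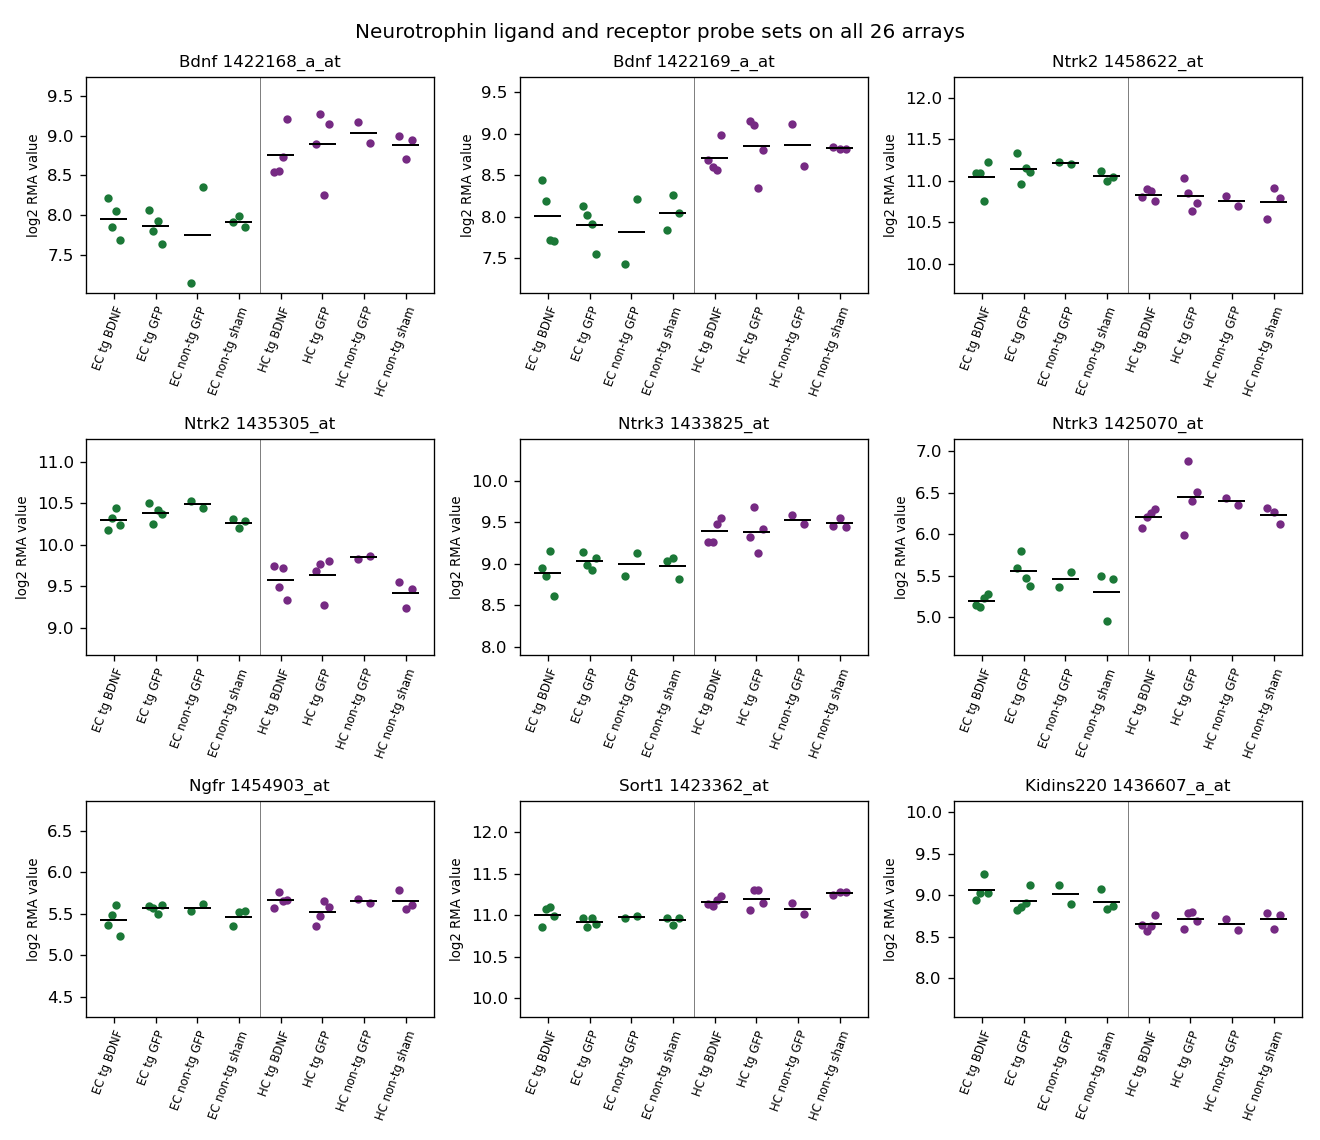
Log2 RMA value (y axis) of 9 probe sets on every array, by group (x axis; EC, entorhinal cortex, green; HC, hippocampus, purple; tg, APP transgenic; non-tg, non-transgenic). Points are arrays and black lines are group means. Both Bdnf probe sets sit lower in all 4 cortical groups than in the hippocampal ones, Ntrk2 1435305_at sits higher, and Ngfr 1454903_at lies near 5.5 throughout.

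TrkB, encoded by Ntrk2, is the receptor through which mature BDNF signals. Probe set 1435305_at read 10.19, 10.32 and 10.53 in entorhinal cortex, against 9.25, 9.68 and 9.87 in hippocampus. Every cortical array was above every hippocampal one, with a difference of 0.74 ± 0.06 (adjusted p = 1.47e-09, 1.67-fold). Probe set 1437560_at read 9.84, 10.15 and 10.58 in entorhinal cortex, against 9.46, 9.64 and 9.98 in hippocampus (0.48 ± 0.06, adjusted p = 1.31e-06). The brightest, 1458622_at, read 10.76, 11.10 and 11.33 in entorhinal cortex, against 10.54, 10.80 and 11.04 in hippocampus (0.33 ± 0.06, adjusted p = 9.89e-05). The last pair overlapped between the regions, and their group differences were positive in all 4 groups.

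A further Ntrk2 probe set, 1420837_at, was more variable, at 6.44, 6.74 and 7.21 in entorhinal cortex, against 4.77, 5.91 and 6.80 in hippocampus (0.81 ± 0.17, adjusted p = 3.68e-04). Its lowest value came from replicate 1 of the transgenic GFP hippocampi. Smaller differences passed for the next pair, whose regions overlapped. Probe set 1435196_at read 10.61, 10.82 and 11.03 in entorhinal cortex, against 10.39, 10.64 and 10.74 in hippocampus (0.20 ± 0.05, adjusted p = 0.00162). Probe set 1420838_at read 10.41, 10.59 and 10.74 in entorhinal cortex, against 10.21, 10.39 and 10.65 in hippocampus (0.14 ± 0.05, adjusted p = 0.0271). The call of 1420838_at was lost without replicate 1 of the non-transgenic GFP cortices (adjusted p = 0.0614), replicate 2 of the non-transgenic GFP hippocampi (0.102) or replicate 1 of the sham hippocampi (0.0558). The dimmest Ntrk2 probe sets were 1444121_at, at 3.24, 3.44 and 3.75 in entorhinal cortex, against 3.25, 3.39 and 3.48 in hippocampus, and 1446712_at, at 4.86, 5.14 and 5.48 in entorhinal cortex, against 4.82, 5.06 and 5.27 in hippocampus. This pair, 1444121_at (0.10, adjusted p = 0.0992) and 1446712_at (0.08, adjusted p = 0.318), did not pass, and 1444121_at passed without replicate 3 of the transgenic BDNF cortices (0.11, adjusted p = 0.0431).

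The Ntrk2 probe sets agreed on the direction of the region difference but not on variation between arrays. With region means removed, their pairwise correlations over 26 arrays ran from -0.44 to 0.64, the highest being 1437560_at with 1458622_at and among the lowest 1420837_at with 1437560_at (-0.43). Which transcript form each probe set reads was not determined here. Of the 14 cell type lists, that of endothelial cells and pericytes had the highest correlation with 1420837_at (r = 0.75) and with 1435196_at (r = 0.69), as a description over 26 arrays of shared dissections. The mean of that list ran from 7.29 to 7.70 in entorhinal cortex and from 7.07 to 7.52 in hippocampus, and its part in the Ntrk2 values was not tested.

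TrkC, encoded by Ntrk3, is the receptor for neurotrophin-3. Probe set 1425070_at read 4.95, 5.38 and 5.80 in entorhinal cortex, against 5.99, 6.30 and 6.89 in hippocampus (-0.94 ± 0.08, adjusted p = 2.56e-09). Probe set 1425071_s_at read 6.49, 6.74 and 7.08 in entorhinal cortex, against 7.13, 7.56 and 7.93 in hippocampus (-0.78 ± 0.08, adjusted p = 1.57e-08). For both, every cortical array was below every hippocampal one. The brightest Ntrk3 probe set, 1433825_at, read 8.61, 8.98 and 9.15 in entorhinal cortex, against 9.12, 9.46 and 9.68 in hippocampus (-0.48 ± 0.07, adjusted p = 3.41e-06). Probe set 1455917_at read 7.47, 7.69 and 7.96 in entorhinal cortex, against 7.73, 7.94 and 8.32 in hippocampus (-0.29 ± 0.07, adjusted p = 0.00138).

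Another Ntrk3 probe set, 1447723_at, differed in the opposite direction. It read 7.35, 7.88 and 8.41 in entorhinal cortex, against 5.56, 7.18 and 8.01 in hippocampus (0.76 ± 0.20, adjusted p = 0.00423). The ranges overlapped widely, and the lowest hippocampal value, replicate 3 of the transgenic GFP group, was more than 1 log2 unit below the next. With region means removed, Ntrk3 pairs correlated between -0.26 and 0.71 over 26 arrays. The other 3 Ntrk3 probe sets (1422329_a_at, 1426003_at and 1443970_at) had differences of -0.14, 0.08 and -0.08 and did not pass over all groups. Of them, 1443970_at read 4.12, 4.40 and 4.59 in entorhinal cortex, against 4.30, 4.49 and 4.70 in hippocampus.

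The p75 neurotrophin receptor, Ngfr, binds all neurotrophins and is best known in adult forebrain from cholinergic neurons of the basal forebrain. Its probe sets had means at percentiles 15.6 (1421241_at), 31.2 (1450177_at) and 49.9 (1454903_at) of all probe sets. The highest of them, 1454903_at, read 5.23, 5.53 and 5.61 in entorhinal cortex, against 5.36, 5.63 and 5.78 in hippocampus (-0.11 ± 0.05, adjusted p = 0.0566). Probe set 1421241_at read 3.34, 3.59 and 3.76 in entorhinal cortex, against 3.59, 3.69 and 3.79 in hippocampus, and differed by -0.11 ± 0.04 (adjusted p = 0.0502) and 1450177_at by -0.01 ± 0.05 (adjusted p = 0.868). Without single arrays the adjusted p of 1421241_at fell as low as 0.017 (without sham cortex replicate 3) and that of 1454903_at as low as 0.022 (without transgenic BDNF cortex replicate 3). With all arrays, 1421241_at passed under repeated quantile normalization (-0.15, adjusted p = 0.00655) and array weights (0.0393), and 1454903_at under array weights (0.0295) and the filter at the 30th percentile (0.0454). Single arrays and processing settings put these differences on either side of the threshold.

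Sortilin, Sort1, is a sorting receptor that binds precursor neurotrophins and directs BDNF into secretory vesicles. Probe set 1423362_at read 10.86, 10.97 and 11.09 in entorhinal cortex, against 11.01, 11.18 and 11.30 in hippocampus. The difference of -0.22 ± 0.04 (adjusted p = 6.87e-05) is 1.16-fold, and the regions did not overlap within any of the 4 groups. As for Bdnf, the share of all probe sets without such overlap is not given. Probe set 1450955_s_at read 6.73, 7.07 and 7.47 in entorhinal cortex, against 7.08, 7.21 and 7.41 in hippocampus. It differed by -0.19 ± 0.07 (adjusted p = 0.03), and the call was lost on leaving out any of 5 non-transgenic arrays. Without replicate 2 of the non-transgenic GFP cortices its difference was -0.13 (adjusted p = 0.149). Those 5 were replicate 2 of the GFP cortices, replicates 1 and 2 of the sham cortices, replicate 1 of the GFP hippocampi and replicate 1 of the sham hippocampi. Probe set 1423363_at differed by -0.18 ± 0.07 (adjusted p = 0.053), and it passed on leaving out any of 7 arrays (adjusted p from 0.0279 to 0.0443). These were, in entorhinal cortex, replicate 2 of transgenic BDNF, replicate 1 of each GFP group and replicate 3 of sham, and in hippocampus replicate 3 of transgenic BDNF and replicates 1 and 4 of transgenic GFP.

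Kidins220, the Trk-binding scaffold, had probe sets that went opposite ways. Probe set 1436607_a_at read 8.82, 8.95 and 9.26 in entorhinal cortex, against 8.56, 8.68 and 8.79 in hippocampus, with no overlap (0.30 ± 0.05, adjusted p = 3.03e-05). Probe set 1455762_at read 10.09, 10.26 and 10.48 in entorhinal cortex, against 9.79, 10.03 and 10.22 in hippocampus (0.24 ± 0.05, adjusted p = 3.75e-04). The brightest, 1433852_at, was lower in entorhinal cortex by a small amount (-0.09 ± 0.03, adjusted p = 0.0388), at 11.16, 11.24 and 11.33 in entorhinal cortex, against 11.21, 11.31 and 11.47 in hippocampus. That call was lost on leaving out any of 13 single arrays (differences from -0.09 to -0.07, adjusted p up to 0.131, the last without replicate 1 of the non-transgenic GFP cortices). In entorhinal cortex the 13 were that array, replicate 2 of transgenic BDNF, replicates 1, 2 and 3 of transgenic GFP and replicates 1 and 2 of sham. In hippocampus they were replicates 1 and 2 of transgenic BDNF, replicate 2 of transgenic GFP, replicate 2 of non-transgenic GFP and replicates 2 and 3 of sham. Probe set 1430449_at differed by 0.04 (adjusted p = 0.623), and pairs of Kidins220 probe sets correlated between -0.08 and 0.38 with region means removed.

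The region difference was also computed by genotype. In transgenic mice, 18 of 28 probe sets passed (9 higher and 9 lower in entorhinal cortex), against 32.8% of all probe sets (15.9% higher and 16.9% lower). In non-transgenic mice, with 5 arrays a region, 13 passed (6 higher and 7 lower), against 23.9% of all (10.8% higher and 13.1% lower). Bdnf was lower in entorhinal cortex in both, with differences of -0.92 ± 0.15 and -0.82 ± 0.14 in transgenic mice (1422168_a_at and 1422169_a_at), and of -1.10 ± 0.19 and -0.88 ± 0.18 in non-transgenic mice. The 13 were all among the 18. The other 5, which passed in transgenic mice and not in non-transgenic ones, were Ntrk2 1420838_at and 1435196_at, Ntrk3 1447723_at and 1443970_at, and Ngfr 1421241_at. Of these, Ntrk3 1443970_at (-0.19, adjusted p = 0.00833) and Ngfr 1421241_at (-0.16, adjusted p = 0.0231) did not pass over all groups. The region difference of transgenic GFP mice minus that of all non-transgenic mice passed for 0 of the 28 probe sets (limma). None had an unadjusted p under 0.05, against 2.39% of all probe sets, and 0 of all probe sets passed. It is the same contrast as the transgene effect compared between the regions. The mean of both transgenic groups was not set against non-transgenic mice in this way. The Ngfr call was lost without replicate 2 of the transgenic BDNF cortices (adjusted p = 0.0561) or replicate 4 of the transgenic GFP cortices (0.0512).

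The second question was whether BDNF virus altered these transcripts in transgenic mice, against GFP virus. No member passed in entorhinal cortex or in hippocampus by limma, where 0% of all 45101 probe sets passed. At an unadjusted p under 0.05 there were 2 members in each region, and 4.56% of all probe sets in entorhinal cortex and 4.69% in hippocampus. The Bdnf difference in the injected entorhinal cortex was 0.09 (95% interval -0.35 to 0.54) by 1422168_a_at and 0.11 (-0.33 to 0.55) by 1422169_a_at, with adjusted p = 0.997 for both. In 1422168_a_at the arrays read 8.22, 7.85, 8.04 and 7.68 with BDNF, against 8.07, 7.80, 7.93 and 7.63 with GFP, and the groups overlapped. The lymphocyte list lay between 5.60 and 6.49 in transgenic cortices given BDNF, against 5.94 to 8.93 in those given GFP, and between 5.40 and 6.37 in BDNF hippocampi, against 5.69 to 8.54 in GFP hippocampi. Its part in the BDNF comparison was not tested. Whether either probe set can detect the viral BDNF transcript is not stated in the labels.

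In hippocampus the Bdnf difference was -0.14 (95% interval -0.57 to 0.30, adjusted p = 0.996) by 1422168_a_at and -0.14 (-0.50 to 0.21, adjusted p = 0.99) by 1422169_a_at. The low transgenic GFP replicate 3 moved these values by more than 1.5 times: without it they were -0.35 (adjusted p = 0.583) and -0.31 (0.578). The BDNF effect on Bdnf in entorhinal cortex minus that in hippocampus was 0.23 ± 0.31 and 0.25 ± 0.28 (SE), with adjusted p = 1 for both, and 0 of all 45101 probe sets passed that test (4.09% at an unadjusted p under 0.05).

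**Figure D3:**
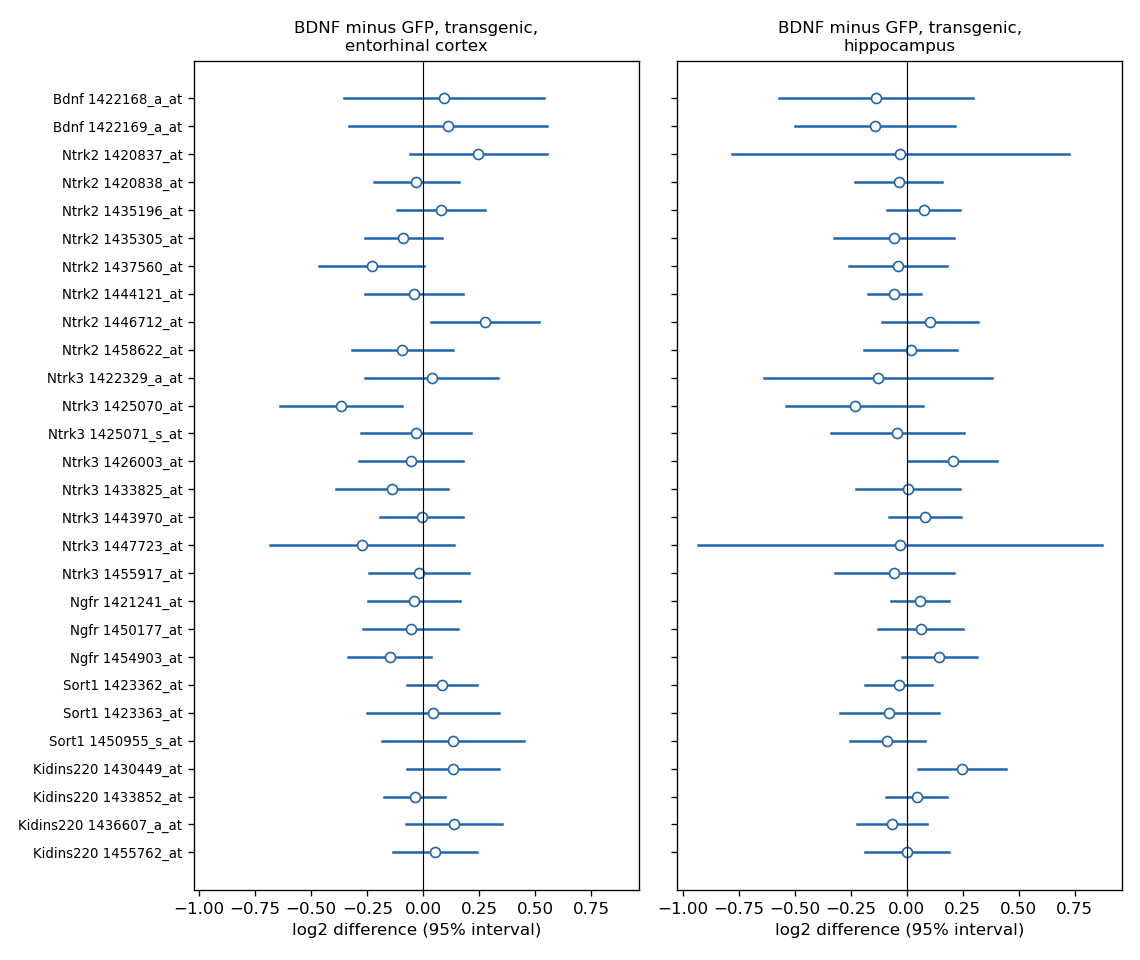
Log2 difference, BDNF minus GFP in APP transgenic mice, with its 95% interval (x axis) for the 28 probe sets (y axis), entorhinal cortex at left and hippocampus at right, n = 4 arrays a group. No probe set passed at an adjusted p under 0.05. Both Bdnf intervals include 0 in each region.

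For Ntrk2, the 8 differences between BDNF and GFP lay between -0.23 (1437560_at) and 0.27 (1446712_at) in entorhinal cortex, and between -0.06 (1435305_at and 1444121_at) and 0.10 (1446712_at) in hippocampus. The smallest unadjusted p among them was 0.0292 (1446712_at in entorhinal cortex, adjusted p = 0.997). The 95% interval of the brightest probe set, 1458622_at, ran from -0.32 to 0.13 in entorhinal cortex and from -0.19 to 0.23 in hippocampus.

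For Ntrk3, 1425070_at read 5.14, 5.12, 5.23 and 5.28 in transgenic cortices given BDNF, against 5.60, 5.80, 5.47 and 5.38 in transgenic cortices given GFP. The groups did not overlap, and the difference of -0.37 ± 0.13 had an unadjusted p of 0.0121 and an adjusted p of 0.997 (limma). It was the 1 member of 28 without overlap in entorhinal cortex, against 2.32% of all probe sets. The sham cortices read 5.50, 4.95 and 5.46, and their lowest lay below all 4 BDNF arrays.

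In hippocampus 2 members did not overlap, against 2.63% of all probe sets. Kidins220 1430449_at read 5.23, 5.13, 5.23 and 5.03 with BDNF, against 4.70, 4.95, 5.02 and 4.97 with GFP (0.25 ± 0.09, unadjusted p = 0.0173, adjusted p = 0.988). Ntrk3 1426003_at was the other (0.21, unadjusted p = 0.0445, adjusted p = 0.988). Ngfr and Sort1 had no unadjusted p under 0.05 in any comparison within a region.

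The third question was the transgene's effect in mice given GFP virus, tested against all 5 non-transgenic arrays and against the 2 given GFP. No member passed in either region. Of all probe sets, 0.00887% passed in entorhinal cortex and 0.0155% in hippocampus against all non-transgenic arrays, and 0.00443% in each against the GFP pair. Against all non-transgenic arrays, members with an unadjusted p under 0.05 numbered 1 in entorhinal cortex (4.01% of all probe sets) and 0 in hippocampus (4.25%). Against the GFP pair there was 1 in each region (2.57% of all in entorhinal cortex and 4.16% in hippocampus). Bdnf differences lay between -0.05 and 0.11 in entorhinal cortex and between -0.14 and 0.01 in hippocampus. Ntrk2 1420837_at had the smallest unadjusted p against all non-transgenic arrays, with a difference of -0.31 ± 0.13 in entorhinal cortex (limma, unadjusted p = 0.0396, adjusted p = 1). The 5 non-transgenic arrays include 3 sham ones, so that comparison mixes genotype with virus. Cortical means of 1420837_at were 6.56 in transgenic GFP, 6.63 in non-transgenic GFP and 7.02 in sham mice. Transgenic status moved with Xist class as stated above, and no member passed in a fit with Xist as a covariate either. As none passed without the covariate, that count cannot give the part of Xist class in these values.

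Transgenic mice given BDNF were also set against all non-transgenic mice, so genotype and treatment differed together there. No member passed by limma in entorhinal cortex (0.0111% of all probe sets did) or in hippocampus (0.00887%), with 1 member at an unadjusted p under 0.05 in entorhinal cortex (9.85% of all) and 0 in hippocampus (5.76%). Bdnf differed by 0.10 and 0.06 in entorhinal cortex and by -0.19 and -0.13 in hippocampus (1422168_a_at and 1422169_a_at). This comparison and the transgene comparison share their non-transgenic arrays, and it shares its BDNF arrays with the BDNF test.

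The fourth comparison set GFP virus against sham lesion in non-transgenic mice, 2 arrays against 3. No member passed (0.00443% of all probe sets did in entorhinal cortex and 0.0244% in hippocampus), and members with an unadjusted p under 0.05 numbered 3 in entorhinal cortex (2.84% of all) and 4 in hippocampus (8.64%). Kidins220 1430449_at read 5.48 and 5.22 in GFP cortices, against 4.81, 4.86 and 4.99 in sham cortices (0.46 ± 0.12, unadjusted p = 0.00261, adjusted p = 1). Its GFP arrays were above all sham arrays in entorhinal cortex, whereas in hippocampus the groups overlapped, at 5.06 and 5.11 with GFP, against 4.85, 5.15 and 5.17 with sham. Ntrk2 1435305_at read 9.83 and 9.87 in GFP hippocampi, against 9.55, 9.25 and 9.47 in sham hippocampi (0.43 ± 0.16, unadjusted p = 0.0183, adjusted p = 0.497). Beside these values, the lymphocyte list lay at 6.03 and 8.98 in GFP cortices, against 5.29 to 5.55 in sham cortices, and at 8.12 and 8.44 in GFP hippocampi, against 5.08 to 5.49 in sham hippocampi. Over 26 arrays with region means removed, its correlation with Ntrk2 1435305_at was 0.46, a description, and its part in these values was not tested. Groups did not overlap for 7 of 28 members in entorhinal cortex, against 19.6% of all probe sets, and for 10 in hippocampus, against 27.1%.

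Across the 10 comparisons within a region, 0 of the 280 member values passed and 15 had an unadjusted p under 0.05, of which 7 were Ntrk2, 4 Ntrk3 and 4 Kidins220. Bdnf differences ran from -0.23 to 0.15 and their smallest unadjusted p was 0.34. The difference of the transgene effect between the regions passed for no member and for 0 of all probe sets (2.39% of all had an unadjusted p under 0.05, and no member did).

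**Figure D4:**
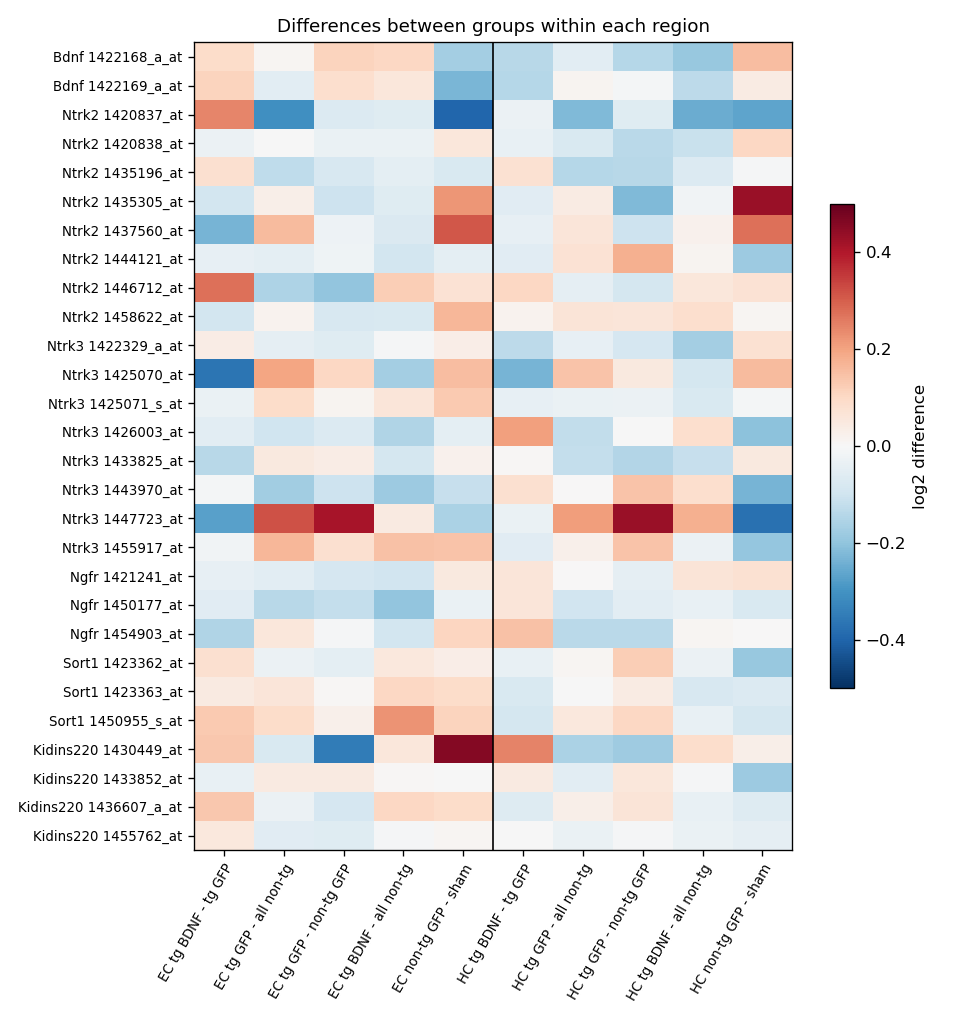
Log2 difference (colour) of the 28 probe sets (rows) in the 10 comparisons within a region (columns; EC, entorhinal cortex, left of the line; HC, hippocampus; tg, APP transgenic). Red is higher in the group named first. None passed at an adjusted p under 0.05, and the deepest colours belong to Kidins220 1430449_at, Ntrk3 1447723_at and Ntrk2 1420837_at and 1435305_at.

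Other genes of the pathway were taken as lists, 1 probe set a gene. Among the 14941 genes at or above the 30th percentile, 19.6% were higher and 29.9% lower in entorhinal cortex, with a median difference of -0.03. Of 7 genes for other ligands and the enzymes that process them, 4 were higher and 1 lower (median 0.15). Pcsk5 (0.94 ± 0.09) and Pcsk1 (0.65 ± 0.09), proprotein convertases, and Cpe (0.23 ± 0.04), the carboxypeptidase of the secretory pathway, were higher. Furin, a convertase that cleaves neurotrophin precursors, was lower (-0.21 ± 0.05).

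Of 10 receptors and receptor partners, 4 were higher and 3 lower (median 0.05). The sortilin relatives Sorcs1 (0.99 ± 0.10) and Sorcs3 (0.50 ± 0.07) and the receptor phosphatase Ptprf (1.03 ± 0.08) were higher. Slitrk5, a TrkB partner, was lower (-0.41 ± 0.06), as was the Nogo receptor Rtn4r (-0.40 ± 0.05), which signals with p75. Of 19 adaptors recruited by Trk receptors, 6 were higher and 5 lower (median -0.08), with Irs2 at 0.45 and Shc1 at -0.28. Of 7 interactors of p75, 0 were higher and 3 lower (median -0.10), namely Mapk8ip3 (-0.34 ± 0.04), Maged1 (-0.26 ± 0.04) and Traf6 (-0.22 ± 0.04).

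Of 18 kinases and calcium effectors below TrkB, 6 were higher and 11 lower (median -0.19). Pik3r1, a regulatory subunit of phosphoinositide 3-kinase, was higher (0.75 ± 0.04), as were Camk4 (0.72 ± 0.12) and Rps6ka3 (0.60 ± 0.06), a kinase that phosphorylates CREB. Camk2b, a subunit of the synaptic calcium/calmodulin kinase, was lower (-1.08 ± 0.05), as were Prkcd (-0.74 ± 0.13) and the small GTPase Rap1a (-0.44 ± 0.04). Of 11 transcription regulators of Bdnf, 3 were higher and 4 lower (median 0.01). Mef2c (1.77 ± 0.05), Creb1 (0.52 ± 0.07) and Rest, a repressor (0.32 ± 0.09), were higher, and the CREB coactivator Crtc1 was lower (-0.80 ± 0.06). In each of the other comparisons apart from the 3 between regions, 0 genes of the 6 lists passed.

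Some cell type lists separated the regions and others overlapped. Overlapping lists included GABAergic interneurons (9.90 to 10.32 in entorhinal cortex, against 9.80 to 10.22 in hippocampus) and microglia (9.18 to 10.11, against 9.42 to 10.06). Oligodendrocyte precursors (7.76 to 8.31, against 7.65 to 8.03) overlapped as well, as did the lymphocyte and cholinergic lists. The mean of the myelin list lay between 7.74 and 9.49 in entorhinal cortex and between 9.94 and 10.67 in hippocampus, with 6 of 6 genes lower. The dentate granule cell list lay between 5.90 and 6.39 in entorhinal cortex and between 8.43 and 9.28 in hippocampus. The CA field list lay between 7.16 and 7.50 in entorhinal cortex and between 8.57 and 8.98 in hippocampus. The meningeal list lay between 7.62 and 8.54 in entorhinal cortex and between 7.07 and 8.04 in hippocampus, with 5 of 6 genes higher. The general neuron list lay between 11.67 and 11.86 in entorhinal cortex and between 11.90 and 12.29 in hippocampus, with 1 of 7 genes higher and 4 lower. The choroid plexus list lay between 4.93 and 5.73 in entorhinal cortex and between 5.77 and 8.81 in hippocampus, with 2 of 5 genes lower. The astrocyte list lay between 10.71 and 11.01 in entorhinal cortex and between 10.81 and 11.18 in hippocampus, with genes on both sides. By region mean, Gfap (9.19 against 10.66) and Aldh1l1 (8.53 against 8.54) were lower in entorhinal cortex. Higher there were Gja1 (12.30 against 12.09), Slc1a2 (13.10 against 12.93), Slc1a3 (10.93 against 10.83) and Aqp4 (11.08 against 10.83). The part of these lists in the Bdnf, Ntrk2 and Ntrk3 differences was not tested.

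The genes whose variation between arrays was most like that of each member were found by Pearson correlation over the 26 arrays with region means removed, among 14940 genes. For Bdnf 1422169_a_at they were Gm17750 (r = 0.80), Slc39a12 (0.70) and Prkd1 (0.70). For Ntrk2 1458622_at they were Vamp7 (0.77), Pqbp1 (0.75) and Nmd3 (0.73), and for Ntrk3 1433825_at Magi1 (0.78), Ptgr2 (0.75) and Sin3b (0.75). For Sort1 1423362_at they were Clip3 (0.78), Mapk8ip3 (0.78) and Aatk (0.75), for Kidins220 1433852_at Pcnx (0.70), Prrc2b (0.67) and Trim35 (0.65), and for Ngfr 1454903_at 9630015K15Rik (0.70), Ly6m (0.70) and Ly6k (0.65). No other member was among the 3 nearest of any member. Each r is among the highest of 14940 and is a description without a test. By rank (Spearman), the correlations of these genes ran from 0.51 (Pqbp1 with Ntrk2) to 0.81 (Gm17750 with Bdnf).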

How the data were processed

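Total RNA from 26 dissected tissues was measured on Affymetrix arrays. The deposited files hold log2 values that the authors made by RMA, per the submitters' processing notes, with no missing value. The labels state no other upstream setting. Of 45101 probe sets, 34958 had 1 gene symbol in the platform annotation, 932 several and 9211 no entry; only those with 1 symbol were named.

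All probe sets then entered linear models (lmFit, contrasts.fit and eBayes of limma 3.58.1, under R 4.3.3), without a block: 13 arrays a region for comparisons within a region, 26 arrays for comparisons of regions. P-values are 2-sided and adjusted by Benjamini-Hochberg over all probe sets, with a threshold of 0.05; intervals are 95%. The number of arrays limits the precision. All arrays entered the tests. P-values measure the spread between samples the labels call biological replicates.

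The members, gene lists and tests were chosen with earlier results of these data known. All probe sets of each member were kept. Levels by region are given for the member probe sets called in a comparison and for all of Bdnf and Ntrk2. Pathway genes were taken by the probe set with the highest mean, and up to 3 called genes in each direction were named. Alternatives were filters at the 30th and 50th percentiles, median centring, repeated quantile normalization, array weights, trend and robust eBayes, other sample sets, Xist as covariate, gene-level summaries, the replicate block and each array left out. Not every same-numbered pair deviated together. Correlations over 0.1 were found for 6 of 16 pairs within entorhinal cortex (range -0.25 to 0.39) and 3 of 16 within hippocampus (-0.25 to 0.16). Across regions they were found for 3 of 13 (-0.49 to 0.48). The non-transgenic GFP pairs, with 2 arrays a group, share 1 value there by construction (0.47). Only 7 of 13 pairs across regions shared an Xist class, so the numbers were not treated as pairs in the main fits.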

Additional observations from a re-analysis of the deposited data

Results flagged for a closer look

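Within groups of 4 arrays, 112 combinations of probe set and group were examined for a single array far from the rest. Of these, 2 stood out, a smaller share than the 1 in 20 or so that chance alone gives. Both concerned Ntrk3 1455917_at in hippocampus. Replicate 3 of the transgenic BDNF group read 8.32, with the nearest array at 7.87, and replicate 2 of the transgenic GFP group read 8.28, with the nearest at 7.94. The region difference of this probe set in transgenic mice no longer passed without the first (-0.17, adjusted p = 0.0947) or without the second (-0.18, adjusted p = 0.0921). It was also lost without any of 4 other arrays, replicate 1 of the transgenic BDNF cortices (0.0876) and replicates 1, 3 and 4 of the transgenic GFP cortices (0.0519, 0.0683 and 0.0732), and with all arrays under array weights (0.0772), median centring (0.0603) and a fit of only the groups compared (0.0676).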

How the results depend on the processing

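Of the results that passed the threshold, 49 in all, the alternatives gave 1355 values: 1296 stayed past it, 59 no longer passed and 0 changed direction. The 371 results that did not pass had 7427 alternative values, of which 42 passed, 114 moved by more than 1 SE and 505 changed sign. The number of member probe sets passing between regions was 16 to 21 with 1 array left out and 16 to 21 under the other settings, 11 to 13 and 12 to 17 in non-transgenic mice, and 16 to 18 in both for transgenic mice. All counts within a region stayed at 0. With 1 array left out, the Bdnf difference of BDNF and GFP hippocampi ran from -0.35 to -0.010 (1422168_a_at) and from -0.31 to -0.041 (1422169_a_at); the extremes of -0.35 and -0.31 came without transgenic GFP replicate 3. In entorhinal cortex they ran from 0.0024 to 0.18 and from -0.034 to 0.21. The replicate block joined arrays by replicate number and, between regions, also by genotype and treatment. Only 7 of 13 such pairs across regions shared an Xist class, so the blocks cannot all be single animals. With the replicate block, 18 probe sets passed between regions, 17 in transgenic and 12 in non-transgenic mice, and 0 within a region. The block ended the calls of Kidins220 1433852_at (adjusted p = 0.0913), of Ngfr 1421241_at in transgenic mice (0.0519) and of Kidins220 1455762_at in non-transgenic mice (0.0786), and Sort1 1423363_at passed with it (0.0366). Kidins220 1433852_at was also lost under median centring (0.0765) and repeated quantile normalization (0.0602), and the last also ended Ntrk2 1420838_at (0.0511) and Sort1 1450955_s_at (0.0597). Leaving out the 3 arrays that stand apart ended those 2 (0.0593 and 0.223) and, in non-transgenic mice, Ntrk2 1420837_at (0.079) and Kidins220 1455762_at (0.06). Of calls in non-transgenic mice, Ntrk2 1420837_at was lost without any of 5 single arrays (adjusted p from 0.0506 to 0.0753: GFP cortex replicate 2, sham cortex 3, GFP hippocampus 1 and 2, sham hippocampus 2), Kidins220 1455762_at without any of 5 (0.0508 to 0.0615: GFP cortex 1 and 2, sham cortex 1, GFP hippocampus 1, sham hippocampus 1) and Kidins220 1436607_a_at without GFP cortex replicate 1 (0.0521). In transgenic mice, Ntrk2 1420838_at was lost without BDNF cortex replicate 1 (0.0588), GFP cortex 3 (0.0565) or GFP hippocampus 3 (0.062), and Ntrk3 1447723_at without BDNF hippocampus replicate 4 (0.0515) and in a fit of only the groups compared (0.0506). The dim signal of the Ngfr probe sets limits what their values can show.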
